A study of Mus musculus with 22 samples.

Results

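Lysosomes break down glycosaminoglycans, the long sugar chains of proteoglycans, and the 8 genes Ids, Arsb, Galns, Sgsh, Idua, Gusb, Naglu and Hexa encode enzymes of that process. They were taken from the array by name, as every non-control probe listed under one of these genes or under an older name of it. This gave 8 of the 21174 named genes on the array and 15 of its 41174 probes, with 1 further probe of Arsb listed under the older name 1110007C02Rik. All 8 genes had at least 1 probe well above background on 9 or more arrays and were tested, while 11 of the 15 probes reached that level and 4 did not.

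The chains are taken apart from their free ends, 1 sugar or sulfate group at a time, so each enzyme waits for the one before it. Sulfatases remove the sulfate groups and glycosidases then cut off the exposed sugars, and chondroitin, dermatan, heparan and keratan sulfate need partly different enzymes. In people the loss of most of these enzymes causes mucopolysaccharidosis, a group of storage diseases in which undegraded chains fill lysosomes and the skeleton is often misshapen, and the loss of Hexa causes Tay-Sachs disease.

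The samples were forelimbs of mouse embryos aged 13.5 days and of strain 129, from 9 wild-type and 13 Chsy-1 knockout samples. Chsy-1 is the chondroitin sulfate synthase that lengthens chondroitin chains. The comparison therefore asks how genes of glycosaminoglycan breakdown read in limbs that lack a gene for building chondroitin chains. Some of the enzymes act on other chains. RNA of each sample, labelled with Cy5, was hybridised against 1 Cy3-labelled universal mouse reference RNA, and values are given as log2 of the sample signal over the reference signal. Neither the deleted part of Chsy-1 nor the number of embryos behind each sample is stated in the labels, and the p-values can speak only to the spread among the samples at hand. Precision is limited by how many arrays there are.

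The targeted gene was read first. Mean log2 ratios of Chsy1 were 1.73 ± 0.28 (SD, 9 wild-type arrays) and -4.38 ± 1.39 (SD, 13 knockout arrays), a difference of -6.11 (limma, SE 0.438, 95% interval -7.02 to -5.21, adjusted p = 1.27e-08). The library labelled knockout 1 stood at 0.15, while the other 12 knockout arrays lay between -5.12 and -4.05; without that library the difference was -6.49. All 6 slides held both genotypes, but only position 2 on the slide did, with 3 arrays of each. There, wild-type replicates 7 to 9 lay on slides 1 to 3 and knockout replicates 1 to 3 on slides 4 to 6. Genotype and slide therefore cannot be told apart within position 2. With position as a block on all 22 arrays the Chsy1 difference was -4.66 and passed (limma, 95% interval -6.10 to -3.23, adjusted p = 0.0228). With the block the Chsy1 difference rests on the arrays of position 2, which include knockout 1, and the other arrays add only to the spread. Within position 2 alone it was the same -4.66 and did not pass (limma, adjusted p = 1). Markers of limb mesenchyme and cartilage were present in every group, with wild-type mean log2 ratios of 6.36 for Hoxd13 and 3.76 for Col2a1. Of the genes that tell fore- from hindlimb, the forelimb factor Tbx5 had mean log2 ratios of 2.20 in wild type and 2.41 in knockout. Tbx4, a hindlimb factor, had 0.61 and 0.71, and Isl1, which acts early in the hindlimb, had 1.71 and 2.08. Pitx1, another hindlimb factor, had 5.64 and 5.45, with Cy5 signals of 27169.6 to 85995.2 units over the 22 arrays, so that gene does not bear out the forelimb label in either genotype. Of 6 liver markers 4 were tested, and their mean log2 ratio ranged from -0.61 to 0.49 over wild-type and from -0.70 to 0.53 over knockout arrays. Alb and Afp were well above background on 22 arrays, Fgg on 21, Fgb on 13, Apoa1 on 2 and Ttr on 0.

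Promoter sequence is shown for 3 of the 8 genes, because Naglu and Hexa moved together between arrays and Naglu and Sgsh carry the same short motif. RefSeq promoter windows on GRCm38.p6, from 250 bases before the start to 50 after it, matched 7 of the 8 genes, and Galns was not among them. CACGTG, the core of the site bound by TFEB and related activators of lysosomal genes, occurs in the windows of Naglu and Sgsh, 2 of 7, against 8.09% of 27025 genes. The longer form TCACGTGA, which contains CACGTG, was in 0 of 7 windows, against 1.12% of genes. GGGCGG, a GC box searched on both strands (the other motifs read the same on either strand), was in the windows of Arsb, Sgsh, Naglu and Hexa, 4 of 7, against 38.2% of genes. A match to these letters is a description of the sequence and not of binding. The 100 bases before each start follow, 5′ to 3′ on the strand of the gene, with CACGTG in capitals; Naglu and Hexa lie on the plus strand and Sgsh on the minus strand.
Naglu, chr11:101069994-101070093: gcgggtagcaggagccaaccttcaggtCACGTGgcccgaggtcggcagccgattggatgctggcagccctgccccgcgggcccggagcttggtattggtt
Sgsh, chr11:119355511-119355610: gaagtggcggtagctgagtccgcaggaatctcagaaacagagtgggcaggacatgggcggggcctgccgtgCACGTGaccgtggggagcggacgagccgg
Hexa, chr9:59539440-59539539: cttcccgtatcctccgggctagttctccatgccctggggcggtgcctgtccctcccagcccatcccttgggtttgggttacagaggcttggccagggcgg
The motif begins at position -73 in Naglu and at -29 in Sgsh, counted from the start of the gene, and the Hexa stretch has none.

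None of the 8 enzyme genes passed the test between genotypes, and none had groups of arrays that did not overlap. With limma and Benjamini-Hochberg adjustment over 18639 genes, 0 of 8 had an adjusted p under 0.05, with adjusted p-values of 0.917 to 0.984. Over all genes 4 passed as lower in knockout (0.0215%) and 0 as higher (0%), and the 2 genotypes' arrays were apart for 1 gene (0.00537%). At an unadjusted p under 0.05, 2 of the 8 were lower, Galns and Arsb, and 0 were higher, against 736 genes lower (3.95%) and 258 higher (1.38%). The fitted difference, knockout minus wild type, was below 0 for 5 of 8, against 53.4% of all genes; with arrays centred on their medians in place of loess, and relative to the shift of 0.24 in the all-gene median, Gusb (0.018) and Hexa (0.023) turned above 0 and Idua (-0.12) below. Its median was -0.081 over the 8 and -0.007 over all genes. In this fit, which has no covariate, all 8 intervals lay within a 1.5-fold change in either direction, as did those of 96.6% of all genes. This did not hold under every setting. With position as a block the Ids interval was -0.91 to 0.45 and reached beyond that range.

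The small differences varied with the part of the slides they were read from. Within position 2 all 8 were below 0, from -0.23 for Ids and -0.16 for Sgsh to -0.05 for Naglu and -0.017 for Idua, although Ids, Sgsh and Idua were above 0 over all arrays. Arsb and Gusb each had -0.14 there, Galns -0.13 and Hexa -0.07, and 0 of 8 passed. The intervals of all 8 included 0 there, such as -0.62 to 0.15 for Ids and -0.35 to 0.32 for Idua. The median over all genes was also lower within position 2, at -0.023 against -0.0072 over all arrays, and Idua lay above it. The share of all genes below 0 within position 2 was not read, so the direction of the 8 has no background there. Taken slide by slide, Galns and Gusb were below 0 on 5 of 6 slides, Arsb, Naglu and Hexa on 4, Idua on 3, Ids on 2 and Sgsh on 1. Each slide held only 1 or 2 wild-type arrays. Within each slide the genotypes lay at different positions, so genotype and position cannot be told apart there. The share of all genes below 0 on each slide was not read, so these counts have no background either. Without the library labelled knockout 1 the median over the 8 genes was -0.08 and again 0 passed, with Galns at -0.19 and Arsb at -0.10.

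**Figure D1:**
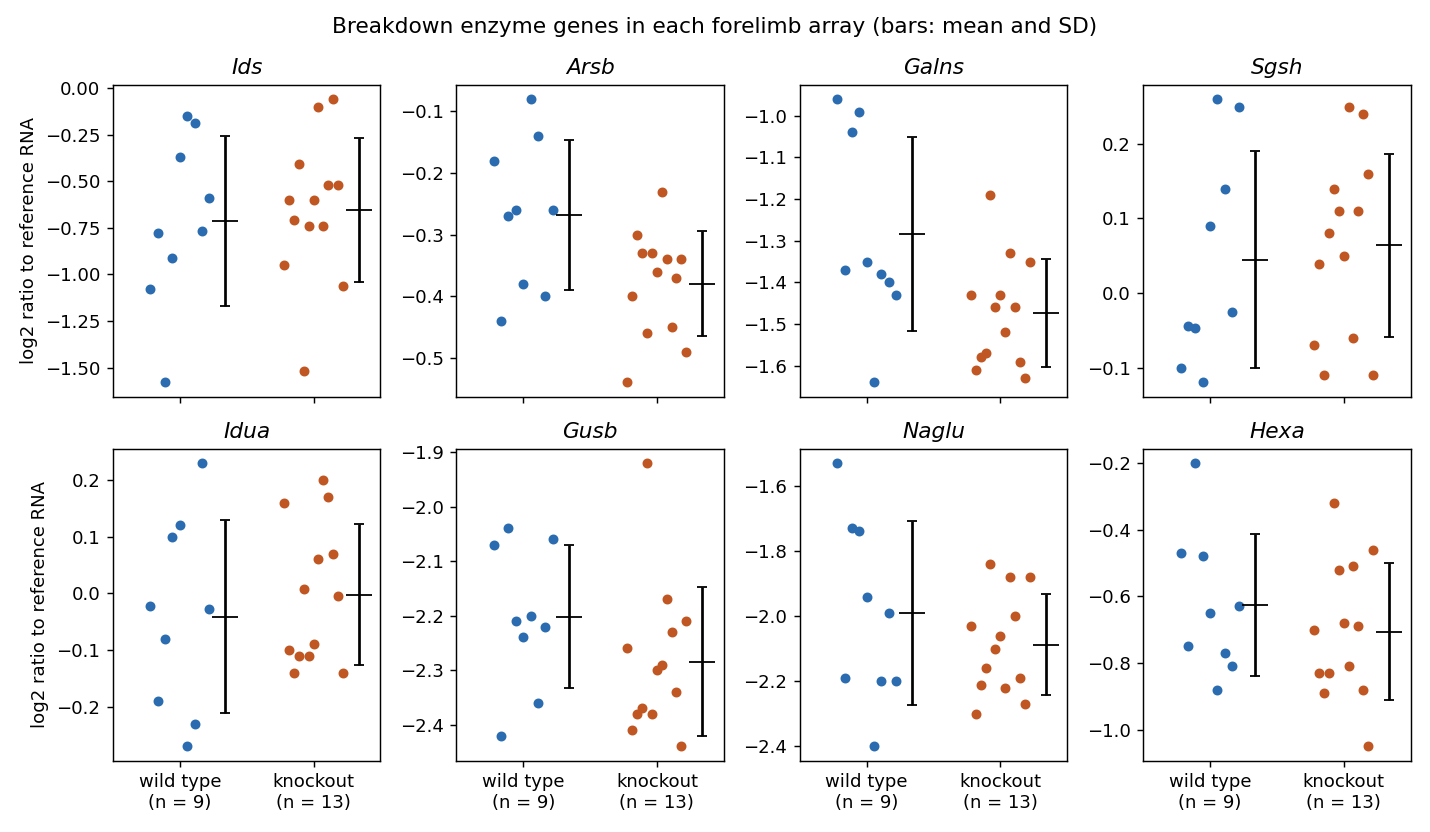
Log2 ratio of sample over reference (vertical axis) of the 8 enzyme genes on each array, with wild type (9 arrays) and knockout (13 arrays) side by side; each point is 1 array, the bar is the mean with its SD, and each panel has its own vertical range. The groups overlap for every gene, and Ids has the widest spread, from -1.58 to -0.06.

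Among the sulfatases, Galns had the largest fitted difference of the 8 genes. Galns encodes the enzyme that removes sulfate from N-acetylgalactosamine of chondroitin sulfate and from galactose of keratan sulfate, and its loss causes Morquio syndrome. Its probe lies at chr8:125464712-125464771 (mm8, as are all probe positions here, from the file headers; exon or untranslated region was not looked up, since no mm8 annotation was used). The wild-type log2 ratios ran from -1.64 through a median of -1.37 to -0.96, and the knockout values from -1.63 through -1.46 to -1.19. Wild-type replicates 1, 4 and 3 stood highest, at -0.96, -0.99 and -1.04, and all 13 knockout arrays lay within the wild-type range. The means were -1.29 ± 0.23 (SD, n = 9) and -1.47 ± 0.13 (SD, n = 13), a difference of -0.19 (limma, SE 0.077, 95% interval -0.35 to -0.029, unadjusted p = 0.0225, adjusted p = 0.917). This corresponds to a ratio of knockout to wild type of 0.878. Its 6 within-slide differences ranged from -0.41 to 0.19. Without wild-type replicate 1, 3 or 4 the interval included 0, at -0.30 to 0.0064, -0.32 to 0.0031 and -0.31 to 0.0054. Without any other single array it did not.

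Arsb encodes arylsulfatase B, which removes sulfate from N-acetylgalactosamine of chondroitin and dermatan sulfate, and its loss causes Maroteaux-Lamy syndrome. Its brightest probe (chr13:95041616-95041673) had wild-type log2 ratios from -0.44 through a median of -0.26 to -0.08 and knockout values from -0.54 through -0.36 to -0.23. The wild-type median exceeded 12 of the 13 knockout values, yet 9 were within the wild-type range, and knockout 1 was the lowest of all. The means were -0.27 ± 0.12 (SD, n = 9) and -0.38 ± 0.08 (SD, n = 13), with a difference of -0.11 (limma, SE 0.049, 95% interval -0.21 to -0.0085, adjusted p = 0.917). The probe under the older name (chr13:95042838-95042897) gave a difference of only -0.016, with an interval of -0.17 to 0.14. With the tested probes averaged the difference was -0.06, with an interval of -0.17 to 0.047. Leaving out 1 array brought the interval of the brightest probe across 0 for some arrays and not for others. Without wild-type replicate 1, for example, it was -0.21 to 0.0061. Both are dim, with Cy5 signals of 141.5 to 291.4 and 78.4 to 179.3 units against a local background of 56. Another probe of the gene (chr13:94974468-94974527) was well above background on 0 arrays.

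Ids was the most variable of the 8. It encodes iduronate sulfatase, which acts on the iduronate ends of dermatan and heparan sulfate, and its loss causes Hunter syndrome. The log2 ratio of its bright probe (chrX:66603880-66603939, Cy5 1556.3 to 8598.1 units) ran from -1.58 through a median of -0.77 to -0.15 in wild type and from -1.52 through -0.60 to -0.06 in knockout. Wild-type replicate 3 and knockout 5 were the lowest, and knockout replicates 11 and 8 and wild-type replicate 6 the highest, so the spread ran across both genotypes. The means were -0.72 ± 0.45 (SD, n = 9) and -0.65 ± 0.39 (SD, n = 13), a difference of 0.06 (limma, SE 0.168, 95% interval -0.29 to 0.41, adjusted p = 0.982). The pooled SD of 0.41 was larger than that of 94.5% of all tested genes. A dim second probe (chrX:66613832-66613891) had SDs of 0.14 and 0.08 and a difference of 0.05, and another pair of Ids probes did not reach the filter.

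Sgsh encodes sulfamidase, which removes sulfate from the nitrogen of glucosamine in heparan sulfate. Its log2 ratio (chr11:119159732-119159791) ran from -0.12 through a median of -0.026 to 0.26 in wild type and from -0.11 through 0.08 to 0.25 in knockout. All 13 knockout arrays lay within the wild-type range. The difference was 0.02 (limma, SE 0.06, 95% interval -0.10 to 0.14, adjusted p = 0.984), and a dim second probe (chr11:119162654-119162713) gave -0.0027. Leaving out wild-type replicate 4 turned the sign of Sgsh, and leaving out wild-type replicate 3 turned that of Ids, to -0.00075 and -0.048.

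Among the glycosidases, Naglu spread most between wild-type arrays. Naglu removes N-acetylglucosamine from the ends of heparan sulfate. Its probe (chr11:100893407-100893466) had wild-type log2 ratios from -2.40 through a median of -1.99 to -1.53 and knockout values from -2.30 through -2.10 to -1.84. Wild-type replicates 1, 3 and 4 were again the highest arrays of all, as for Galns, and wild-type replicate 6 was again the lowest. The means were -1.99 ± 0.28 (SD, n = 9) and -2.09 ± 0.15 (SD, n = 13), a difference of -0.10 (limma, SE 0.09, 95% interval -0.28 to 0.09, adjusted p = 0.938). A second Naglu probe (chr11:100889169-100889228) was well above background on 0 arrays.

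Hexa encodes the alpha subunit of beta-hexosaminidase, which removes terminal N-acetylhexosamines and is best known for degrading a ganglioside. The log2 ratio of its bright probe (chr9:59361911-59361970, Cy5 4304.4 to 9113.1 units) ran from -0.88 through a median of -0.65 to -0.20 in wild type and from -1.05 through -0.70 to -0.32 in knockout. Wild-type replicate 3 was the highest and knockout 12 the lowest. The difference was -0.08 (limma, SE 0.088, 95% interval -0.26 to 0.10, adjusted p = 0.953).

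Idua encodes alpha-L-iduronidase, the glycosidase that acts on dermatan and heparan sulfate after iduronate sulfatase, and its loss causes Hurler syndrome. Its dim probe (chr5:108923773-108923832, Cy5 92 to 191.4 units) had log2 ratios from -0.27 through a median of -0.027 to 0.23 in wild type and from -0.14 through -0.0049 to 0.20 in knockout. All 13 knockout arrays lay within the wild-type range, and the difference was 0.039 (limma, SE 0.065, 95% interval -0.09 to 0.17, adjusted p = 0.975).

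Gusb encodes beta-glucuronidase, which removes glucuronate from chondroitin, dermatan and heparan sulfate, and its loss causes Sly syndrome. Its main probe (chr5:130273966-130274025) was spotted 10 times on each array, and the other 7 genes had single spots. The log2 ratio ran from -2.42 through a median of -2.21 to -2.04 in wild type and from -2.44 through -2.30 to -1.92 in knockout. Knockout 5 was the highest array and knockout 12 the lowest, and the wild-type median exceeded 11 of the 13 knockout values. The difference was -0.08 (limma, SE 0.061, 95% interval -0.21 to 0.043, unadjusted p = 0.186, adjusted p = 0.931). The 10 spots of an array had an SD of 0.009 to 0.042 log2 units, with a median of 0.026, whereas the SD between arrays was 0.13.

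**Figure D2:**
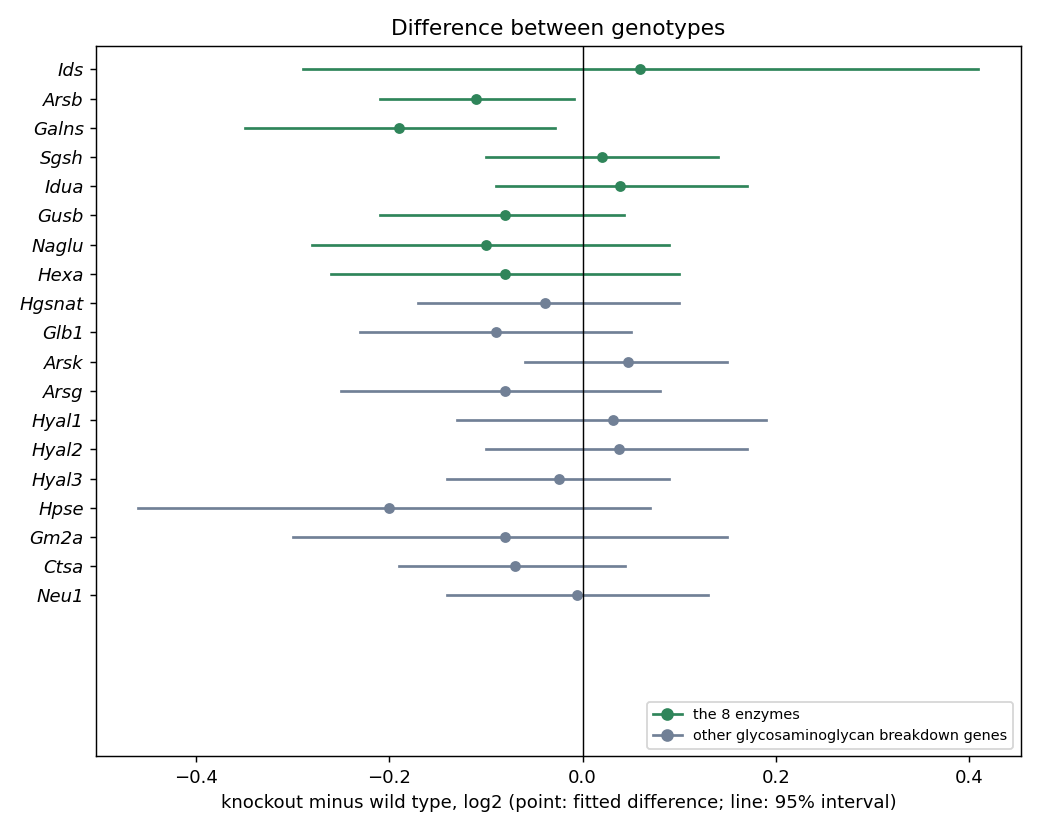
Fitted difference, knockout minus wild type in log2 (horizontal axis), with its 95% interval from limma, for the 8 enzyme genes (green) and 11 other tested genes of glycosaminoglycan breakdown (grey). In this fit to all arrays the intervals of Galns (-0.35 to -0.029) and Arsb (-0.21 to -0.0085) exclude 0 before adjustment, and no gene passed after it.

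Probes of 1 gene did not always follow each other. The second Gusb probe (chr5:130284388-130284447) is listed under another transcript and gave a wild-type ratio to the reference of 1.60, against 0.218 at the main probe. On every array the gap between the 2 probes was 2.5 to 3.15 log2 units. With genotype means removed, their log2 ratios correlated at r = -0.19 over the 22 arrays, although both gave small differences between genotypes, -0.08 and -0.04. The corresponding correlations were 0.47 for the pair of tested Ids probes, 0.43 for Arsb and -0.10 for Sgsh, where both Arsb probes and 1 probe each of Ids and Sgsh were dim. These correlations are descriptions over arrays that share slides and 1 reference.

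The 8 genes did not vary as a block between arrays. Over 28 pairs, with the genotype means removed and 22 arrays, Pearson's r ran from -0.79 to 0.94 with a median of -0.06, and 13 were positive. Galns, Naglu, Hexa and Gusb were positively correlated with each other, from 0.61 for Galns with Gusb to 0.94 for Galns with Naglu. Ids ran opposite to them, with r of -0.79 with Hexa, -0.77 with Galns, -0.72 with Naglu and -0.60 with Gusb. Ids and Sgsh correlated at 0.61. Sgsh and Naglu, the carriers of CACGTG, correlated at -0.60. Any part of the motif in how these genes vary was not tested. Arsb and Idua were less tied to the rest, with r of -0.41 to 0.44.

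**Figure D3:**
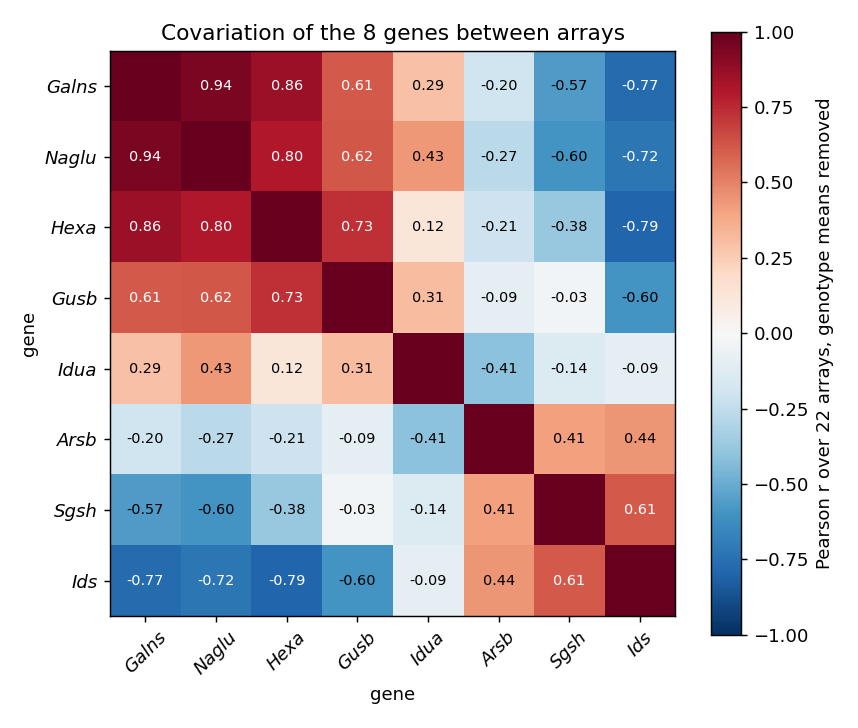
Pearson's r (colour and printed value) between the log2 ratios of each pair of the 8 enzyme genes over 22 arrays, after each genotype's mean was removed. Galns, Naglu, Hexa and Gusb form a group with r from 0.61 to 0.94, and Ids is negative with all 4, from -0.79 to -0.60.

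The closest pair was Galns and Naglu, a sulfatase of keratan and chondroitin sulfate and a glycosidase of heparan sulfate. Their r was 0.94 and Spearman's rho 0.90. It was 0.93 without the 2 arrays farthest from the median of Galns, and 0.94 within slides. Of 16063 other named genes, Galns ranked 1 for likeness to Naglu, and Naglu ranked 2 for likeness to Galns. The gene most like Galns was Vat1, at r = 0.95. For the other genes the most alike were Ier3ip1 for Ids (0.97), Pnpla2 for Arsb (0.87), Ltbr for Sgsh (0.90), Terf1 for Idua (0.77), Tef for Gusb (0.92) and Mgat1 for Hexa (0.93).

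**Figure D4:**
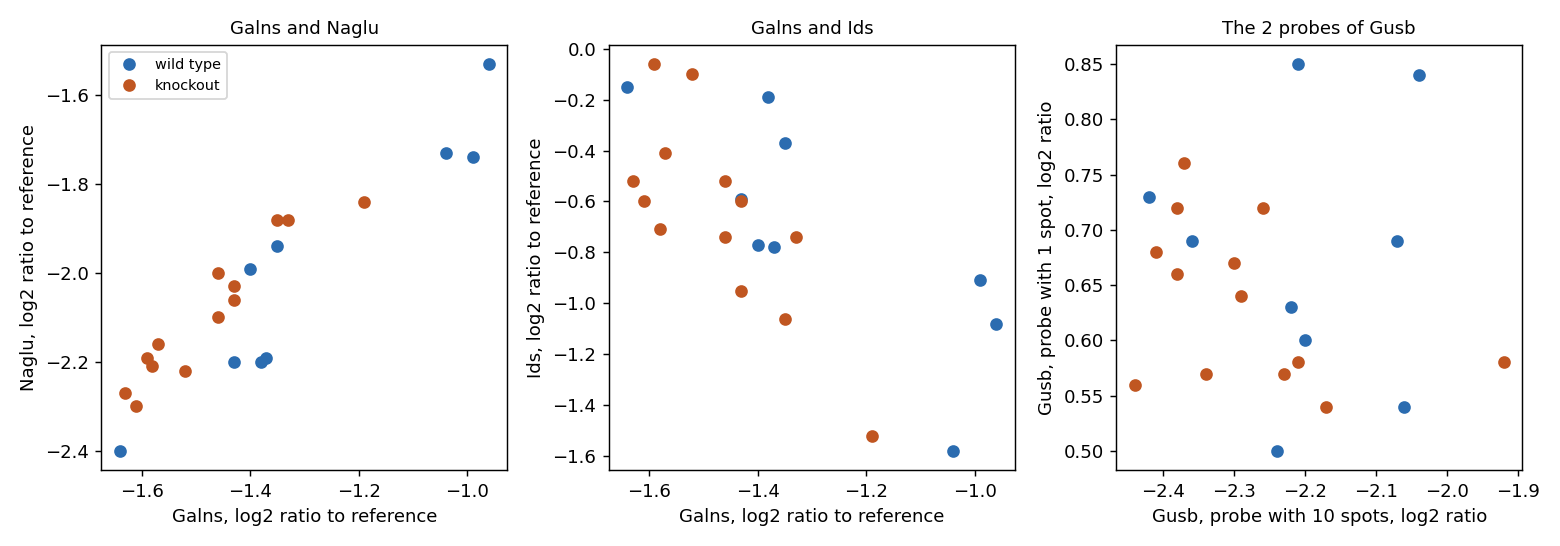
Log2 ratios to the reference on the same array, each point 1 array of wild type (blue, 9 arrays) or knockout (orange, 13 arrays), for Galns with Naglu, Galns with Ids, and the 2 Gusb probes. Naglu is higher where Galns is higher (r = 0.94), Ids is lower there (r = -0.77), and the Gusb probes show little relation (r = -0.19).

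The variation of Ids, Naglu, Galns, Gusb and Hexa ran partly along a pattern shared by many genes, and that of Arsb, Sgsh and Idua less so. The leading principal component of 18611 other tested genes carried 23.7% of the variance, little more than the 22.2% of the next component, and its mean score was 0.08 ± 1.13 (SD, n = 9) for wild type and -0.06 ± 0.94 (SD, n = 13) for knockout. Wild-type 6 had the lowest score, -1.72, and knockout 5 the highest, 1.96. With genotype means removed, the component correlated with Naglu at 0.76, Galns at 0.72, Gusb at 0.71 and Hexa at 0.70, and with Ids at -0.81. The values were -0.54 for Arsb, -0.50 for Sgsh and 0.43 for Idua. For comparison, 37% of 16064 named genes had an r beyond 0.5 in either direction. Once the component was removed, Galns and Naglu still correlated at 0.88, Galns and Hexa at 0.71, and Ids and Hexa at -0.54, while Ids and Gusb came to -0.049. Gusb with Hexa came to 0.47, with Galns to 0.19 and with Naglu to 0.17, so Gusb was no longer close to Galns and Naglu. Other pairs rose, Sgsh and Gusb from -0.027 to 0.55, Ids and Idua from -0.09 to 0.5, and Arsb and Gusb from -0.09 to 0.49. Only the leading component was removed. The second Gusb probe correlated with the component at 0.06. The second tested probes of Ids, Arsb and Sgsh, all dim, correlated with it at -0.42, -0.35 and 0.01. What the component stands for was not tested.

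None of 11 other genes of glycosaminoglycan breakdown passed. All 11 were tested, 0 passed in limma and 0 had an unadjusted p under 0.05. Of them 8 had a fitted difference below 0 and 3 above, against 53.4% of all genes below 0. The median was -0.039 against -0.007 over all genes. Hpse, the heparanase that cuts heparan sulfate chains internally, had -0.20 (limma, 95% interval -0.46 to 0.07, adjusted p = 0.924). Glb1, the galactosidase of keratan sulfate, had a difference of -0.09, and Arsg and Hgsnat of the heparan sulfate pathway had -0.08 and -0.039. The hyaluronidases Hyal1, Hyal2 and Hyal3 had 0.032, 0.038 and -0.024. Arsk, another sulfatase, had 0.047, and the protective protein Ctsa, the sialidase Neu1 and the activator Gm2a had -0.07, -0.0058 and -0.08.

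Genes that activate lysosomal enzymes or bring them to the lysosome also did not pass. Of 12 tested, 8 were below 0 and 4 above, with a median of -0.05 and 0 at an unadjusted p under 0.05. For this and the next lists, 53.4% of all genes were below 0. At an unadjusted p under 0.05 (limma), 3.95% of all genes were lower and 1.38% higher. Sumf1, the enzyme that switches on all sulfatases, had a difference of -0.15 (limma, 95% interval -0.33 to 0.037, adjusted p = 0.924). Nagpa, which uncovers the mannose-phosphate sorting tag, had -0.09, and Scarb2, the sorting receptor of glucocerebrosidase, had -0.08. Of 41 other lysosomal genes 24 were below 0 and 17 above, with a median of -0.017, 0 passing and 2 at an unadjusted p under 0.05, Lgmn and Ctsz. The smallest p of the list was that of Lgmn, the asparaginyl endopeptidase legumain, with wild-type and knockout means of -1.23 and -1.48 and a difference of -0.25 (limma, 95% interval -0.37 to -0.14, unadjusted p = 9.54e-05, adjusted p = 0.296). Ctsz, a cathepsin, had -0.14 and Cln3, a lysosomal membrane protein, had 0.11. Of 12 regulators of lysosomal genes 8 were below 0 and 4 above, with 0 passing and 0 at an unadjusted p under 0.05. Mitf had -0.26 with an interval of -0.56 to 0.035, Tfeb had -0.07 with an interval of -0.16 to 0.032, and Rptor, a subunit of the mTOR complex that holds Tfeb in the cytoplasm, had 0.11.

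Macrophages and osteoclasts are rich in lysosomes, so their markers were read beside the enzymes; in whole limbs a change in the number of such cells and in the RNA per cell cannot be told apart. Of 15 macrophage markers 14 were tested, 6 were below 0 and 8 above, against 53.4% of all genes below 0. The markers had 0 passing, 0 at an unadjusted p under 0.05 and a median of 0.019. Their mean log2 ratio ranged from -1.11 to -0.63 over wild-type arrays and from -1.05 to -0.60 over knockout arrays, and Itgam was well above background on 0 arrays. The smallest p-values were those of Laptm5 (-0.20), Cd68 (-0.13) and Csf1r (0.09). Of 7 osteoclast markers 6 were tested, with 5 below 0, 1 above, 0 passing and 0 at an unadjusted p under 0.05. Their mean ranged from -0.51 to -0.11 in wild type and from -0.56 to -0.32 in knockout, and Mmp9, Itgb3 and Calcr had differences of -0.23, -0.17 and 0.06. The part of these cells in the enzyme values was not tested.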

How the data were processed

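Each of the 22 arrays is a deposited scanner file. Spot and background brightness are deposited as raw intensities, quantified with Agilent Feature Extraction, whose version is 9.5 in the submitters' processing notes and 9.5.3.1 per the file headers. The deposited log10 ratio of processed Cy5 over Cy3 is the scanner software's, and the deposited value table differed from it by 0. Intensities were corrected here with normexp (offset 50) then loess was run array by array, giving no weight to control or outlier spots. Spots of a probe were averaged. Probes entered the test where 9 or more arrays had Cy5 well above background, and each gene was represented by its brightest tested probe, leaving 27782 probes and 18639 genes. Gene names came from the files, updated through RefSeq GRCm38.p6. No non-control spot was saturated (0), and 27214 to 30599 of 43379 spots per array were well above background. Array pairs correlated at 0.886 to 0.993 across genes.

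Groups came from the sample labels. Knockout was compared with wild type by limma 3.58.1 (R 4.3.3) over 22 arrays with no covariate, with Benjamini-Hochberg adjustment over all genes (threshold 0.05) and 95% intervals. The fit was also run on simulated data with independent noise for each gene and array. Those data held no slide or position effect and no pattern shared between genes, so the run does not speak to these. Named genes were the 8 enzymes, Chsy1, the other tested breakdown genes (some are not reported here), up to 3 genes of the smallest p from each other list described by name, and the gene most alike to each enzyme; Tbx4, Tbx5, Pitx1, Isl1, Hoxd13, Col2a1, the liver markers and Itgam were added as tissue checks after their values were seen. Members and lists were chosen with earlier results of these data known. Alternatives changed background correction, normalisation, channel, filter, probe averaging, blocks, weights, variance model and arrays included. Slide and position numbers are those of the file headers.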

Additional observations from a re-analysis of the deposited data

How the results depend on the processing

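The count of enzyme genes past the threshold was 0 under all 18 alternatives and without each of the 22 arrays. Galns, Arsb and Naglu kept a difference below 0 in 18 of 18 alternatives, but not every alternative could move a difference. Intensity scaling between arrays, the filters and the variance model left all 8 as in the main fit. The position block repeats the differences of position 2. Ranges were -0.20 to -0.13, -0.17 to -0.035 and -0.10 to -0.025, with lowest adjusted p-values (limma) of 0.389, 0.157 and 0.775. The median over the 8 genes ranged from -0.13 to -0.0051, and from -0.11 to -0.049 over the omissions of 1 array. When arrays were centred on their medians instead of loess, the all-gene median became 0.24. Relative to that median, Idua turned to -0.12, Gusb to 0.018 and Hexa to 0.023. With slide position blocked, and likewise within position 2, Ids turned to -0.23, Sgsh to -0.16 and Idua to -0.017. Position 2 holds 3 arrays of each genotype, knockout 1 among them, and its genotypes lie on different slides. No other position holds both genotypes, so both settings give the same estimates. Chsy1 came to -4.66 in both, passing with the block (limma, adjusted p = 0.0228) and not within position 2 alone (limma, adjusted p = 1). Array weights turned Ids to -0.0092 and Sgsh to -0.018, and leaving out wild-type 1 and knockout 12 together turned Sgsh to -0.0056. The cause of these reversals was not tested. Omitting 1 array at a time gave -0.23 to -0.15 for Galns, -0.13 to -0.09 for Arsb, -0.11 to -0.06 for Gusb, -0.11 to -0.025 for Hexa, -0.15 to -0.04 for Naglu, 0.01 to 0.07 for Idua, -0.048 to 0.13 for Ids, -0.00075 to 0.047 for Sgsh and -6.49 to -6.05 for Chsy1. With the first component as a covariate, chosen after seeing the data, Galns had -0.17 (adjusted p = 0.51) and Arsb -0.12 (adjusted p = 0.567). Replicate numbers are shared by the genotypes. Deviations of the 9 same-number pairs correlated at -0.31 to 0.49, 3 were over 0.1, and 1 pair was best with its own number. Same-number arrays lay on different slides, so these values cannot settle whether the samples were paired. The replicate block gave a count of 0, a median of -0.06, Galns -0.17 and Arsb -0.10. The dim probes of Arsb and Idua limit what could be seen for these genes.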
